A study of Equus caballus with 24 samples.

Results

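THRA, THRB, DIO2, DIO3, TSHR and CRYM encode the 2 nuclear thyroid hormone receptors, a pair of deiodinases, the thyrotropin receptor and a cytosolic thyroid hormone binding protein, and they were taken by their gene symbols. Of these 6 genes, 5 had a row under that symbol among the 24232 genes with reads, and DIO2 was not analysed here. The rows are ENSECAG00000011120 (THRA), ENSECAG00000019007 (THRB), ENSECAG00000005966 (DIO3), ENSECAG00000015397 (TSHR) and ENSECAG00000013362 (CRYM), and the files give no coordinates. The RNA came from the pituitary and from the epiphysis (the end) of a long bone of female Debao ponies (DPs), a breed of short stature, and Mongolian horses (MHs), with 6 horses of each breed. Juvenile horses were younger and adult horses older than 3 years. Breed, tissue and stage divide the libraries into 8 groups of 3, named by breed, then P for pituitary or LB for long bone, then J or A for the stage. They are DPPJ, DPPA, DPLBJ and DPLBA in DPs and MHPJ, MHPA, MHLBJ and MHLBA in MHs. The labels name no treatment, and the sources used here do not say which pituitary and which long bone came from the same horse. Levels are given as RPKM, reads scaled by gene length and library size, so that they can be set side by side between genes.

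Thyroid hormone reaches tissues mostly as T4. Type 2 deiodinase turns T4 into the active T3, while type 3 deiodinase inactivates both, and membrane transporters carry the hormones into the cell. T3 binds the receptors TRα (THRA) and TRβ (THRB), which sit on DNA with a retinoid X receptor and recruit coactivators or corepressors. In the anterior pituitary, T3 acting through TRβ restrains the thyrotropin gene TSHB, and in the growth plate, thyroid hormone acts largely through TRα on the maturation of chondrocytes and the pace of ossification. CRYM, μ-crystallin, holds T3 in the cytosol.

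Between 11433209 and 27007342 reads per library were counted on genes. In 5 of the 12 pituitary libraries (DPPA replicate 1, MHPA replicate 1 and all 3 of MHPJ), the 8 anterior pituitary endocrine markers with a row, such as hormone genes, summed to 0.37 to 21.4 RPKM, against 14610 to 42670 RPKM in the other libraries. Astrocyte and pituicyte markers summed to 2286 RPKM or more in these 5 libraries and to 33.0 to 2131 RPKM in the others. In MHPJ replicate 2 this sum was almost all S100B (2919 of 2975 RPKM). GFAP was at 26.5, AQP4 at 1.86 and SLC1A3 at 1.24 RPKM in that library. MHPJ has no library rich in anterior pituitary markers, so breed and this difference cannot be told apart in the juvenile pituitary. In the long bone, MH libraries had 55.3 to 301 RPKM of cartilage markers against 550 to 6413 RPKM in DP libraries. Single cartilage markers overlapped between the breeds. In DPLBJ replicate 1 the sum was mostly CHAD (535 RPKM) and COL11A2 (334 RPKM). COL2A1 was at 0.88 RPKM there and at 5.68 RPKM in DPLBA replicate 2, against 123 RPKM in MHLBA replicate 1. MH libraries had more adipocyte markers (6997 to 9503 RPKM against 1833 to 6852), except for MHLBA replicate 1 at 717 RPKM. Osteoblast and osteocyte markers were at 689 to 4952 RPKM in MH and 2017 to 13840 RPKM in DP long bone. Endothelial markers summed to 438 to 669 RPKM in MH long bone, except for MHLBA replicate 1 at 97.1 RPKM, and to 174 to 325 RPKM in DP long bone. Neutrophil markers summed to 0.69 to 23.0 RPKM in MH and to 223 to 1574 RPKM in DP long bone, except for DPLBJ replicate 1 at 2.68 RPKM. In bulk tissue, fewer cells of a type and less RNA per cell cannot be told apart.

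**Figure D1:**
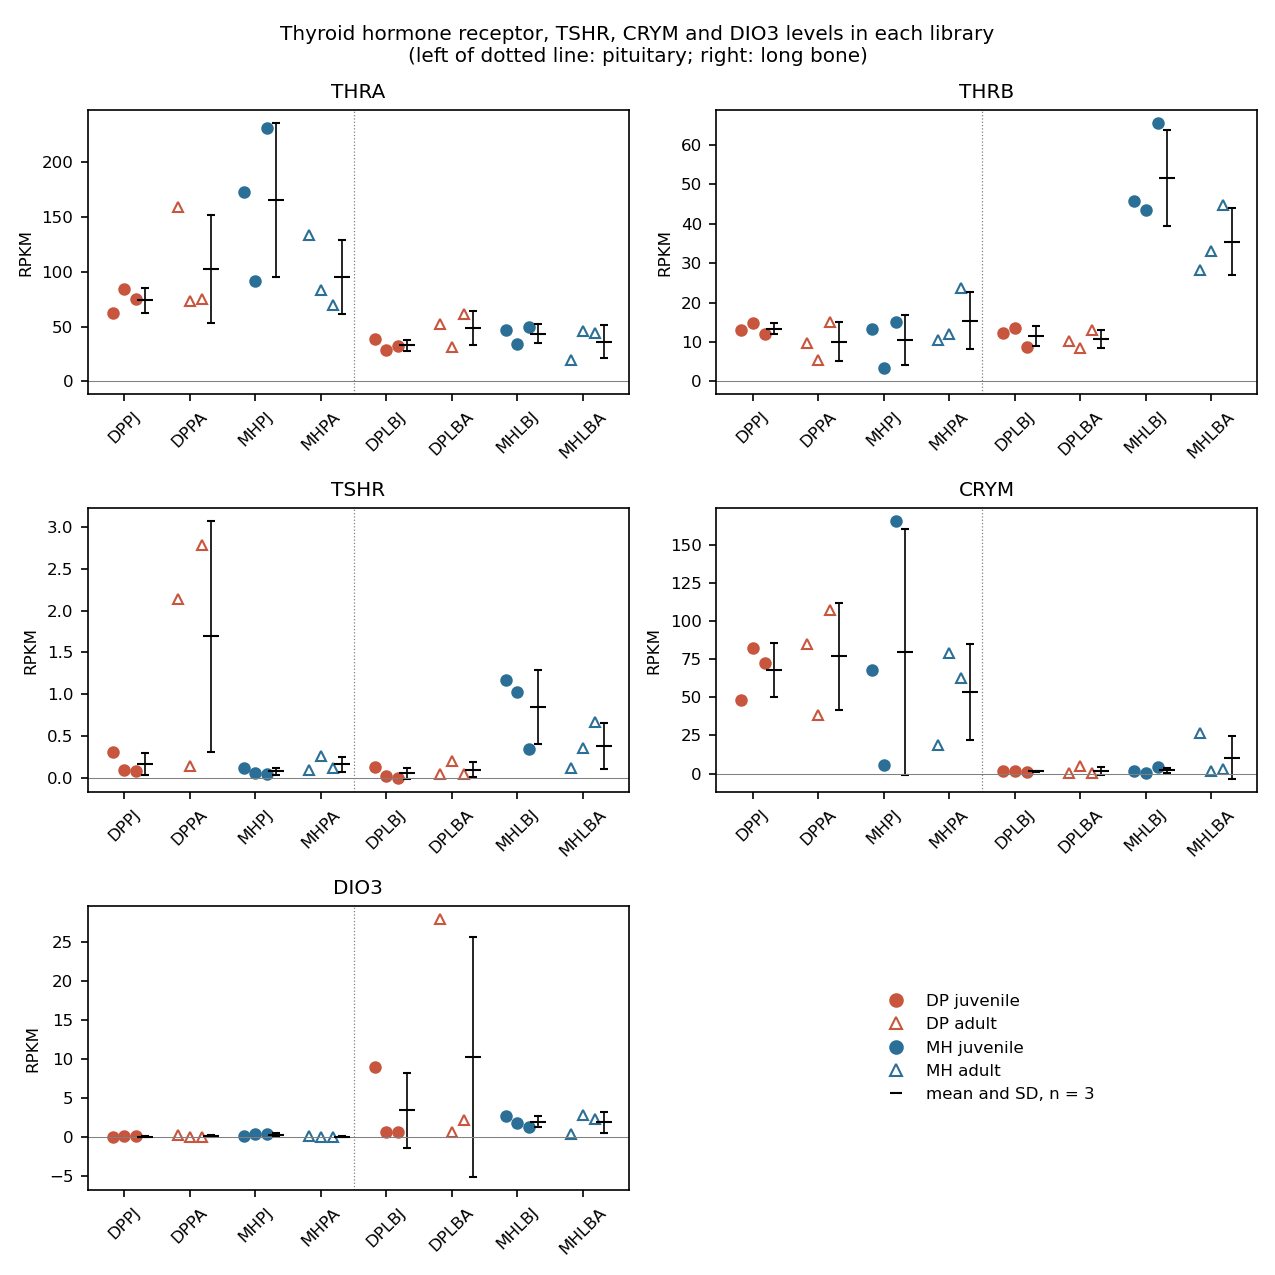
RPKM (y axis) of the 5 genes in each of the 24 libraries, grouped by breed, tissue and stage (x axis). Points are libraries and black bars are the mean with SD (n = 3). THRB in MH long bone lies at 28.4 to 65.5 RPKM, above every DP long bone library.

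THRB was 3.97-fold lower in the long bone of juvenile DPs than of juvenile MHs, and 3.59-fold lower in adults. The 3 DPLBJ libraries had 12.3, 13.5 and 8.60 RPKM and the 3 MHLBJ libraries 45.8, 43.5 and 65.5 RPKM. In adults, the DPLBA libraries had 10.3, 8.58 and 13.1 RPKM and the MHLBA libraries 28.4, 33.0 and 44.9 RPKM. No DP long bone library reached the lowest MH library at either stage. These levels rest on 343 to 560 reads per DP library and on 1171 to 2930 reads per MH library.

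The THRB difference was tested with edgeR's quasi-likelihood test, and a differentially expressed gene (DEG) differed more than 2-fold in either direction at P under 0.05 before adjustment. Fold changes are DP minus MH on the log2 scale, and adjusted p-values are Benjamini-Hochberg over all tested genes. The log2 fold change was -1.99 (SE 0.32, edgeR adjusted p = 0.136) in juveniles and -1.85 (SE 0.27, edgeR adjusted p = 0.0275) in adults. THRB and TSHR were the DEGs among the 5 genes in the juvenile long bone, where 5.47% of all tested genes were DEGs lower in DPs and 23.5% had breeds that did not overlap. TSHR, with 0 to 5 reads in DPLBJ, passed the low-count filter through the MHLBJ libraries, so the filter favoured this direction. THRB alone was a DEG in the adult long bone, where 8.03% were DEGs lower in DPs and 24.2% did not overlap.

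Over both stages, with 12 libraries and stage as a covariate, THRB was 3.83-fold lower in DP long bone (log2 fold change -1.94, SE 0.20, edgeR adjusted p = 0.00126). Of all 14735 tested genes, 7.52% were DEGs lower in DPs and 4.38% had breeds whose RPKM did not overlap. THRB kept this call with each library left out in turn (-2.01 to -1.83). MHLBA replicate 1, whose adipocyte and endothelial markers were the lowest of all long bone libraries, had the least THRB of the MH libraries, 28.4 RPKM. This was above every DP library, which had at most 13.5 RPKM. DPLBA replicate 1, with the most adipocyte markers of the DP libraries (6852 RPKM), had 10.3 RPKM of THRB. The part of the adipocyte, cartilage, osteoblast, endothelial and neutrophil markers in the THRB difference was not tested.

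**Figure D2:**
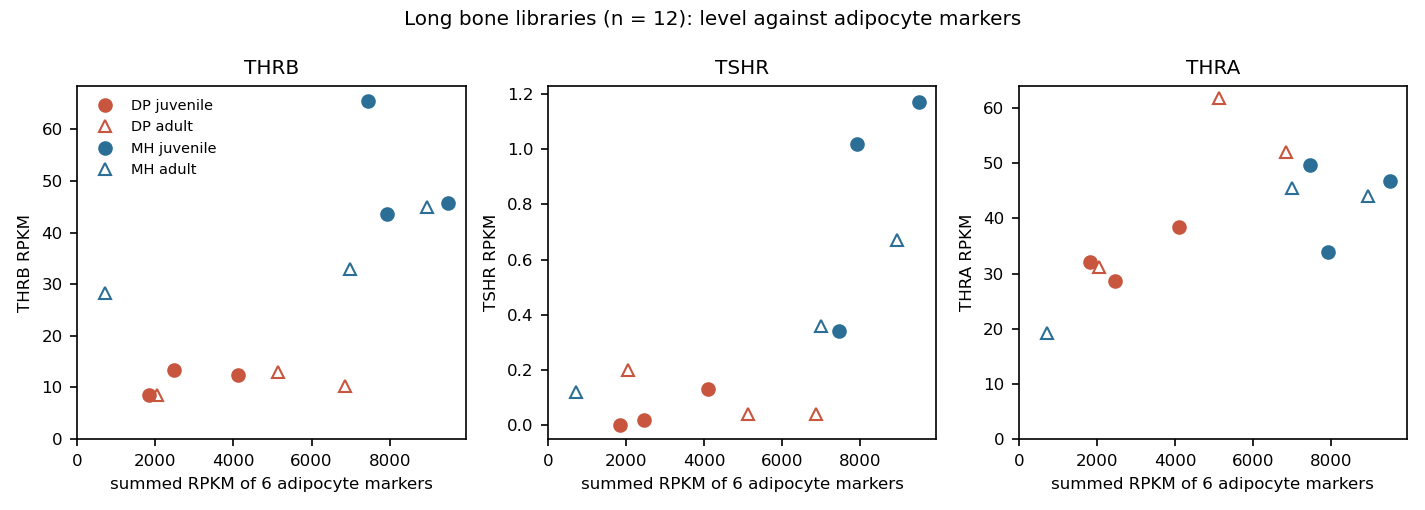
RPKM of THRB, TSHR and THRA (y axes) against the summed RPKM of 6 adipocyte markers (x axis) in the 12 long bone libraries, coloured by breed with circles for juveniles and triangles for adults. The MH library with 717 RPKM of adipocyte markers has 28.4 RPKM of THRB, 0.12 RPKM of TSHR and 19.3 RPKM of THRA. The DP library with 6852 RPKM of these markers has 10.3, 0.04 and 52.0 RPKM.

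In the pituitary, THRB levels of the breeds overlapped. The DP libraries had 13.1, 14.8 and 12.1 RPKM in juveniles and 9.69, 5.44 and 15.2 RPKM in adults. The MH libraries had 13.3, 3.36 and 15.1 RPKM in juveniles and 10.5, 12.1 and 23.6 RPKM in adults. The lowest value belonged to MHPJ replicate 2, in which skeletal muscle markers summed to 551 RPKM, against at most 11.8 RPKM in the other pituitary libraries. The pooled log2 fold change between breeds was -0.14 (SE 0.37, edgeR adjusted p = 0.858).

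The breed difference of THRB differed between the tissues. The interaction of breed and tissue over all 24 libraries was 1.73 on the log2 scale (SE 0.42, edgeR adjusted p = 0.0143), which means that THRB was lower in DPs by more in the long bone than in the pituitary. Of the 5 genes, THRB, TSHR and DIO3 passed the DEG threshold in this interaction, which 20% of all tested genes did. The interaction of THRB passed the threshold with each of the 24 libraries left out in turn. In the order of the group means, MHLBJ (51.6 ± 12.1 RPKM, SD, n = 3) and MHLBA (35.4 ± 8.51 RPKM, SD, n = 3) came first and overlapped. A gap without overlap followed, and the other 6 groups, at means of 10.1 to 15.4 RPKM, each overlapped their neighbour in the order.

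**Figure D3:**
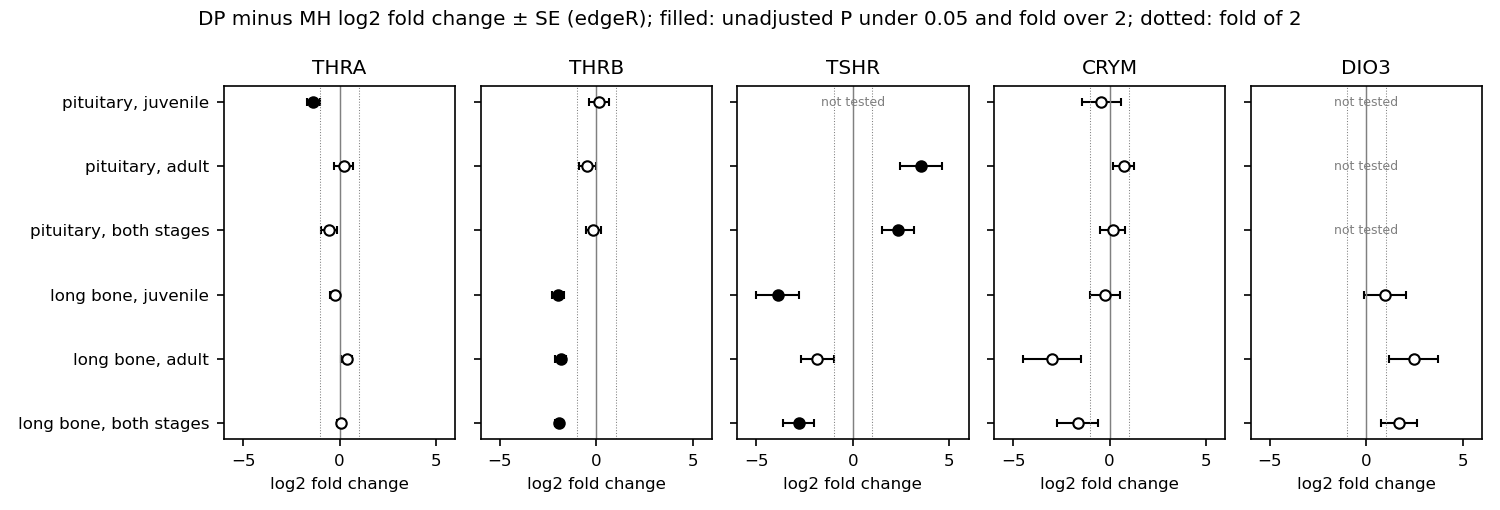
Log2 fold change (x axis, DP minus MH) of each gene with its SE as the horizontal bar, for 6 breed comparisons (y axis). Filled points are DEGs, and dotted lines mark a fold change of 2. THRB lies at -1.99, -1.85 and -1.94 in the 3 long bone comparisons and between -0.47 and 0.16 in the pituitary.

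THRA had the highest mean RPKM of the 5 genes in every group but MHLBJ, where THRB was higher (51.6 against 43.5 RPKM). It was higher in the pituitary than in the long bone without overlap, at 62.3 to 232 RPKM (median 84.0) in the 12 pituitary libraries and 19.3 to 61.9 RPKM (median 41.3) in the 12 long bone libraries. The log2 fold change of pituitary over long bone, over the 8 groups, was 1.28 (SE 0.21, edgeR adjusted p = 1.88e-05). Of all 16131 tested genes, 21.1% were DEGs higher in the pituitary and 7.21% had tissues whose RPKM did not overlap. Without the 5 pituitary libraries low in anterior pituitary markers, a choice made after seeing the data, the difference was 0.69 (SE 0.14, edgeR adjusted p = 0.000448) and under a fold change of 2.

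In the juvenile pituitary, THRA was lower in DPs. The DPPJ libraries had 62.3, 84.5 and 74.8 RPKM and the MHPJ libraries 173, 91.7 and 232 RPKM. The groups did not overlap, and the log2 fold change was -1.36 (SE 0.35, edgeR adjusted p = 0.059). THRA was the DEG among the 3 genes tested in this comparison, where 12.7% of all tested genes were DEGs lower in DPs and 42.5% did not overlap between the breeds. Without MHPJ replicate 3 the value was -0.99 and no longer a DEG.

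In the adult pituitary, the DPPA libraries had 159, 73.2 and 75.3 RPKM of THRA and the MHPA libraries 134, 83.6 and 69.5 RPKM. The groups overlapped, with a log2 fold change of 0.21 (SE 0.50, edgeR adjusted p = 0.916). The highest library of each adult group, replicate 1, is one of the 5 libraries low in anterior pituitary markers. All 5 of these libraries had 91.7 RPKM or more of THRA, and the other 7 pituitary libraries had 62.3 to 84.5 RPKM. Neuron markers summed to 1343, 1519 and 1605 RPKM in DPPA replicate 1, MHPJ replicate 1 and MHPJ replicate 3, the 3 libraries with the most THRA, and to 202 to 508 RPKM in the other pituitary libraries. The part of these markers in the THRA values was not tested.

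**Figure D4:**
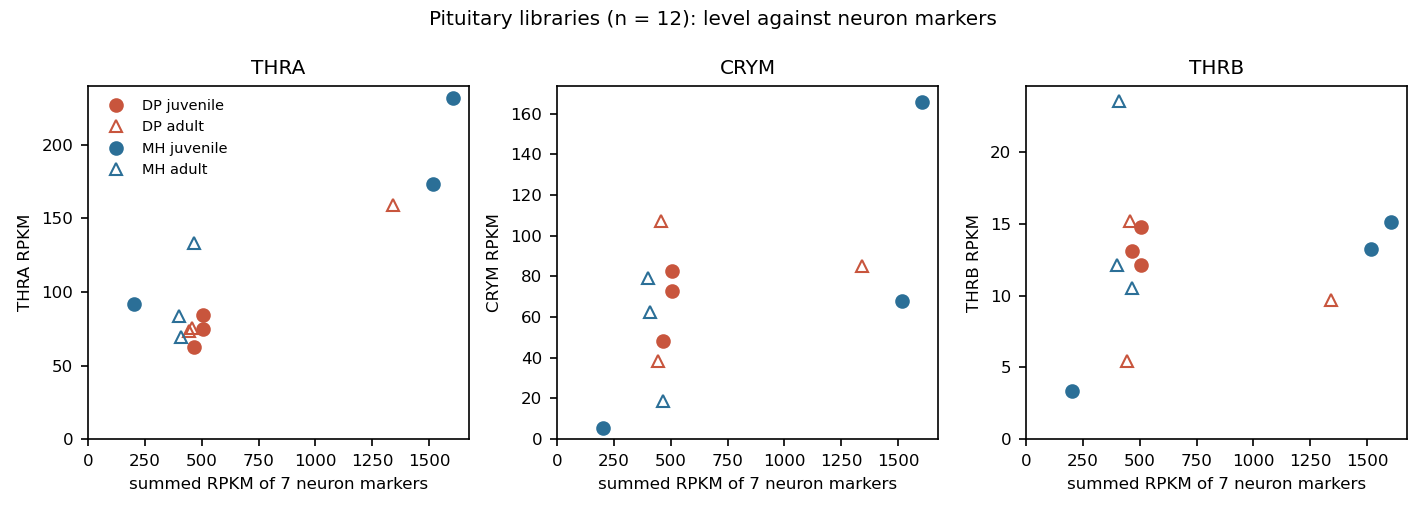
RPKM of THRA, CRYM and THRB (y axes) against the summed RPKM of 7 neuron markers (x axis) in the 12 pituitary libraries, coloured by breed with circles for juveniles and triangles for adults. The 3 libraries with 1343 RPKM or more of neuron markers have the 3 highest THRA values, 159 to 232 RPKM.

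In the pituitary, the breed difference of THRA differed between the stages by -1.57 on the log2 scale (SE 0.65, edgeR adjusted p = 0.224). THRA passed the unadjusted threshold as 1 of 4 genes tested, and 15.7% of all tested genes did so. The difference was lost in 7 of the 12 fits that left out 1 library, with the smallest value, -1.01, without DPPA replicate 1. In the long bone, this interaction gave 0 DEGs among the 5 genes in edgeR (4.17% of all tested genes), and the lowest unadjusted P was 0.0966, for THRA. The breeds overlapped in THRA at both stages. The DPLBJ and MHLBJ libraries spanned 28.7 to 38.5 and 34.0 to 49.8 RPKM, and the DPLBA and MHLBA libraries 31.3 to 61.9 and 19.3 to 45.6 RPKM. The pooled log2 fold change was 0.05 (SE 0.20, edgeR adjusted p = 0.884).

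The ratio of THRA to THRB, chosen after their values were seen and given without a test, differed between the breeds in the long bone. In DP long bone the ratio of the RPKM values was 2.13 to 5.03 (median 3.69), and in MH long bone it was 0.68 to 1.38 (median 0.882). The ranges did not overlap, and 4 of the 6 MH libraries had less THRA than THRB. In the pituitary the ratio was 4.74 to 16.4 in DPs and 2.95 to 27.3 in MHs, and the ranges overlapped.

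**Figure D5:**
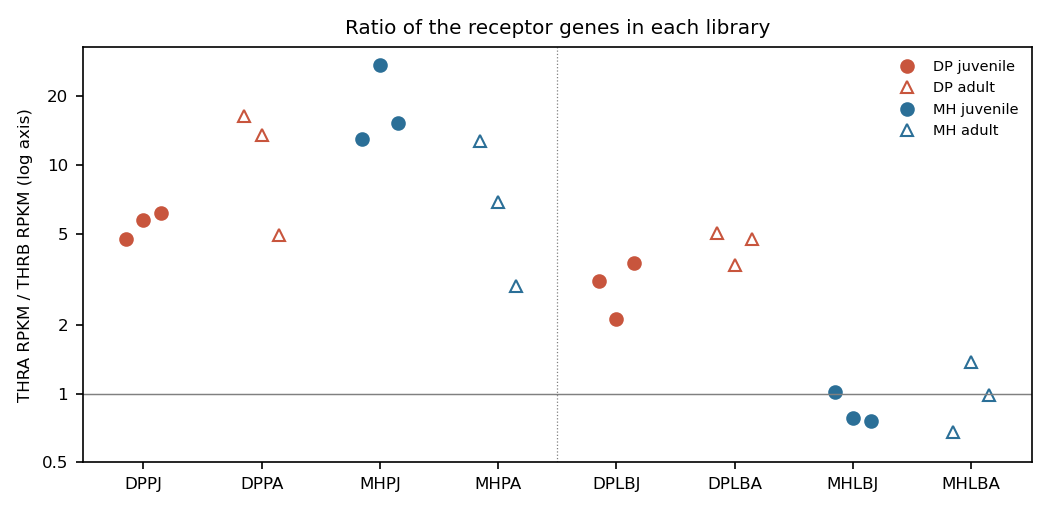
Ratio of THRA to THRB RPKM in each library (log y axis) by group (x axis), with pituitary groups left of the dotted line and long bone groups right of it. The horizontal line marks equal levels, and MH long bone lies at 0.68 to 1.38 while DP long bone lies at 2.13 to 5.03.

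In single pairs of groups, THRA was higher in the pituitary by 2.01 on the log2 scale in juvenile MHs (SE 0.39, edgeR adjusted p = 0.018) and by 1.18 in adult MHs (SE 0.39, edgeR adjusted p = 0.0845). The adult MH difference was 0.69 without MHPA replicate 1, and it also lost the threshold without MHLBA replicate 1 (1.05) or replicate 3 (1.20). The DP differences, 0.87 (SE 0.23, edgeR adjusted p = 0.0269) in juveniles and 0.99 (SE 0.41, edgeR adjusted p = 0.0966) in adults, were under a fold change of 2. All 5 genes were DEGs between the tissues in juvenile MHs, where 32.7% of all tested genes were. The numbers were 2 of 4 tested in juvenile DPs (background 36.8%), 3 of 5 in adult DPs (39.1%) and 2 of 4 in adult MHs (27.1%). DIO3, in each pair tested, and TSHR, in juvenile MHs, passed the low-count filter through their long bone reads. The filter favoured the direction of these calls. THRB was lower in the pituitary of MHs, with a log2 fold change of -2.21 in juveniles (SE 0.57, edgeR adjusted p = 0.0349) and -1.57 in adults (SE 0.33, edgeR adjusted p = 0.027). In DPs its tissue difference was -0.08 (SE 0.29) and -0.23 (SE 0.37). Over the 8 groups it was -0.99 (SE 0.29, edgeR adjusted p = 0.00623), just under a fold change of 2, with -1.10 to -0.82 when 1 library was left out.

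TSHR, the receptor of thyrotropin, is known mainly from thyroid follicle cells, and was low in both tissues. It had 0 to 152 reads per library, or 0 to 2.79 RPKM.

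In the adult pituitary, the 3 DPPA libraries had 2.14, 0.14 and 2.79 RPKM of TSHR (133, 9 and 152 reads), and the MHPA libraries had 0.09, 0.26 and 0.12 RPKM (4, 11 and 5 reads). DPPA replicates 1 and 3 were above all other pituitary libraries, which had at most 0.31 RPKM, and replicate 2 lay within the MHPA range. TSHR differed by a log2 fold change of 3.54 (SE 1.08, edgeR adjusted p = 0.503). It passed the low-count filter in no pituitary pair without DPPA, so the filter favoured a higher level in DPPA. TSHR was the DEG among the 4 genes tested, against 1.75% of all genes that were DEGs higher in DPs. Libraries of the same replicate number deviated together in this comparison, although they come from different breeds. Replicate 1 of both groups is low in anterior pituitary markers. With the replicate block the TSHR value was 2.97 (SE 1.29, edgeR adjusted p = 0.408), not a DEG. The call was also lost without MHPA replicate 3 (3.35) and without the 2 adult libraries low in anterior pituitary markers (3.03).

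In the juvenile pituitary, TSHR had 0.31, 0.09 and 0.08 RPKM in DPPJ and 0.12, 0.06 and 0.04 RPKM in MHPJ, too few reads (2 to 16) for the filter. Over both stages, TSHR was higher in the DP pituitary by 2.36 on the log2 scale (SE 0.83, edgeR adjusted p = 0.183). With the replicate block it was 1.88 (SE 0.91, edgeR adjusted p = 0.344) and not a DEG. The breeds overlapped, since 0.04 to 0.26 RPKM was measured in MHs and 0.08 to 0.31 RPKM in the DP libraries other than DPPA replicates 1 and 3. TSHR was the DEG among the 4 genes tested, against 2.1% of all genes that were DEGs higher in DPs. DPPA replicates 1 and 3 had 133 and 152 reads and the other pituitary libraries 2 to 16, so the low-count filter favoured this direction.

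TSHR was lower in the long bone of DPs. The DPLBJ libraries had 0.13, 0.02 and 0 RPKM (5, 1 and 0 reads). The MHLBJ libraries had 1.17, 1.02 and 0.34 RPKM (42, 62 and 19 reads), without overlap, which held for 23.5% of all tested genes. TSHR passed the low-count filter through these MHLBJ libraries and did not pass it between DPLBJ and DPLBA. The filter thus favoured a lower level in DPs. The log2 fold change was -3.90 (SE 1.12, edgeR adjusted p = 0.172), and it was -5.87 without DPLBJ replicate 1 and -3.25 without DPLBJ replicate 3. Adults overlapped, with 0.04, 0.20 and 0.04 RPKM in DPLBA and 0.12, 0.36 and 0.67 RPKM in MHLBA, and gave -1.86 (SE 0.86, edgeR adjusted p = 0.234). Over both stages the difference was -2.82 (SE 0.80, edgeR adjusted p = 0.0323), and it was -3.60 without DPLBA replicate 2. MHLBA replicate 1, the library with the fewest adipocyte and endothelial markers, had the least TSHR of the MH long bone libraries. DPLBA replicate 1, with the most of these markers among the DP libraries, had 0.04 RPKM. The part of these and of the cartilage, osteoblast and neutrophil markers in the difference was not tested. On the log2(RPKM + 1) scale with limma, the TSHR differences between breeds in the long bone shrank below a fold change of 2 (-0.78 in juveniles and -0.55 over both stages), since the levels are under or near 1 RPKM.

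The breed difference of TSHR differed between the tissues, with lower levels in DPs in the long bone and higher levels in the pituitary. The pituitary part was carried by DPPA replicates 1 and 3 (2.14 and 2.79 RPKM), and the other DP pituitary libraries overlapped the MH range. The interaction of breed and tissue was 5.91 on the log2 scale (SE 1.25, edgeR adjusted p = 0.00824) and held with each library left out in turn (5.33 to 6.47). None of these fits left out DPPA replicates 1 and 3 together. Between the tissues, TSHR was lower in the pituitary of juvenile MHs (-3.40, SE 0.71, edgeR adjusted p = 0.0209) and higher in the pituitary of adult DPs (3.89, SE 1.18, edgeR adjusted p = 0.0356). The low side had 2 to 6 reads per library in MHPJ and 2 to 13 in DPLBA, so the low-count filter favoured these directions. The adult DP value lost the threshold without DPLBA replicate 1 (3.53) and rose to 5.21 without DPLBA replicate 2. The fit over all groups gave 0.01 (SE 0.81). All neighbours in the order of the 8 group means, from DPPA (1.69 ± 1.38 RPKM, SD, n = 3) to DPLBJ (0.05 ± 0.07 RPKM, SD, n = 3), overlapped.

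DIO3, type 3 deiodinase, which inactivates T4 and T3 and is known from fetal and proliferating tissues, was detected in the long bone and near 0 in the pituitary. The file gives this gene a length of 761 bases and a low-quality protein description. The long bone libraries had 0.38 to 27.9 RPKM (median 1.98, 7 to 463 reads), and the pituitary libraries 0 to 0.42 RPKM (0 to 7 reads). The ranges of the tissues overlapped at 1 pituitary library (MHPJ replicate 3, 0.42 RPKM) and 1 long bone library (MHLBA replicate 1, 0.38 RPKM), of different stages.

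Because DPPJ and MHPA had at most 1 read in any library, ratios of summed reads are given with 95% intervals that cover counting error only. DIO3 was 86.6 times (23.5 to 722) higher in DPLBJ than in DPPJ, from 143 against 2 reads. In juvenile MHs the ratio was 6.72 (3.68 to 13.4), from 100 against 12 reads. In adult DPs it was 113 (48.3 to 351), from 515 against 5 reads, and in adult MHs 81.6 (14.3 to 3250), from 111 against 1 read. The lowest of the 4 ratios was that of juvenile MHs, whose pituitary libraries held the most DIO3 reads and the least anterior pituitary marker RNA.

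In edgeR, DIO3 passed the threshold between the tissues in the 3 pairs tested, with adjusted p from 0.0191 to 0.04, and over the groups, where 16.8% of all tested genes were DEGs lower in the pituitary (log2 fold change -5.49, SE 0.90, edgeR adjusted p = 2.51e-05). DIO3 passed the low-count filter through its long bone reads, since no pituitary library had more than 7, so the filter favoured this direction. The adult MH pair did not pass the filter. Fitted values against a group near 0 reads depend on the prior count. The adult DP value of -6.97 became -4.11 without DPLBA replicate 1 and -10.68 without DPPA replicate 1, and the juvenile DP value of -6.72 became -4.24 without DPLBJ replicate 1.

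Within the long bone, DIO3 was uneven between libraries of a group. The DPLBJ libraries had 8.92, 0.57 and 0.68 RPKM and the DPLBA libraries 27.9, 0.58 and 2.11 RPKM. The MHLBJ libraries had 2.73, 1.84 and 1.27 RPKM and the MHLBA libraries 0.38, 2.85 and 2.30 RPKM. Replicate 1 of each DP group was the highest of its stage, while the other 4 DP libraries (0.57 to 2.11 RPKM) lay within the MH range of 0.38 to 2.85 RPKM. The breed difference was not a DEG in juveniles (0.96, SE 1.08, edgeR adjusted p = 0.682), in adults (2.45, SE 1.28, edgeR adjusted p = 0.282) or over both stages (1.70, SE 0.95, edgeR adjusted p = 0.229). The interaction of breed and tissue was -3.24 on the log2 scale (SE 1.56, edgeR adjusted p = 0.179), and it was lost in 14 of the 24 fits that left out 1 library, falling to -1.42 without DPLBA replicate 1.

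CRYM was much higher in the pituitary than in the long bone. The pituitary libraries had 5.66 to 166 RPKM (median 70.2) and the long bone libraries 0.36 to 26.8 RPKM (median 1.73). They overlapped through MHPJ replicate 2 (5.66 RPKM), MHPA replicate 1 (18.7 RPKM) and MHLBA replicate 1 (26.8 RPKM). The log2 fold change over the 8 groups was 4.47 (SE 0.78, edgeR adjusted p = 5.14e-05), and it was 4.28 (SE 0.85, edgeR adjusted p = 0.000386) without the 5 pituitary libraries low in anterior pituitary markers.

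By pairs, CRYM was 36.4-fold higher in the pituitary of juvenile DPs (log2 5.19, SE 0.34, edgeR adjusted p = 0.000318), 42.2-fold in juvenile MHs (log2 5.40, SE 1.45, edgeR adjusted p = 0.0392) and 35.2-fold in adult DPs (log2 5.14, SE 1.09, edgeR adjusted p = 0.00936). In adult MHs it was 2.82-fold higher and not a DEG (log2 1.49, SE 1.24, edgeR adjusted p = 0.443). Without MHLBA replicate 1, whose 26.8 RPKM stands against 1.69 and 2.85 RPKM in the other MHLBA libraries, it was 21.3-fold higher and a DEG (log2 4.41, SE 0.66, edgeR adjusted p = 0.0161). This alternative was chosen after seeing the data. The adult DP value was 7.46 without DPLBA replicate 2. The juvenile MH value was 4.17 without MHPJ replicate 3 and 6.32 without MHLBJ replicate 3.

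Within the pituitary, CRYM overlapped between breeds and between stages. The libraries had 48.3, 82.7 and 72.7 RPKM in DPPJ, 85.0, 38.3 and 107 in DPPA, 67.7, 5.66 and 166 in MHPJ and 18.7, 79.1 and 62.6 in MHPA. The extremes were both in MHPJ, and the lowest was the library with the most skeletal muscle markers. The breed difference over both stages was 0.16 (SE 0.63, edgeR adjusted p = 0.913) in the pituitary and -1.65 (SE 1.05, edgeR adjusted p = 0.294) in the long bone. DPLBA replicate 2 at 4.71 RPKM and MHLBA replicate 1 at 26.8 RPKM were the highest of the long bone, and its other libraries had 0.36 to 3.98 RPKM.

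Between the developmental stages, 1 of 16 tests of these genes in the 4 pairs gave a DEG. TSHR was lower in DPPJ than in DPPA (log2 fold change -3.49, SE 1.12, edgeR adjusted p = 0.419), where 2.64% of all tested genes were DEGs lower in juveniles. The groups overlapped through DPPA replicate 2. TSHR passed the low-count filter in no pituitary pair without DPPA, so the filter favoured this direction. The call was lost without DPPA replicate 3 (-3.02), DPPJ replicate 2 (-3.19) or DPPJ replicate 3 (-3.14), and the value was -4.41 without DPPJ replicate 1. None of the tested genes was a DEG in the MH pituitary or the long bone of either breed, where 7.74%, 3.14% (DPs) and 2.91% (MHs) of all genes were. In these comparisons no gene of the 5 had an unadjusted P under 0.05 in edgeR, and the lowest was 0.0656 for CRYM between MHLBJ and MHLBA. Over both breeds, TSHR was lower in the juvenile pituitary (log2 fold change -2.31, SE 0.83, edgeR adjusted p = 0.987), where 0.612% of all genes were DEGs lower in juveniles, and none of the 5 genes was a DEG in the long bone (background 2.06%).

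The other genes of the pathway were counted over 49 symbols in lists of hormones, transporters, plasma carriers, selenoprotein synthesis, deiodinase turnover, receptor partners, T3 targets and thyroid follicle genes, with NR1D1, of which 44 had a row. Between the breeds in the long bone, 5 of 35 tested were DEGs, 2 higher and 3 lower in DPs, against 11.1% of all tested genes higher and 7.52% lower. In the pituitary, 1 of 38 tested was a DEG, lower in DPs, against 3.41% of all genes. Between the tissues, 15 of 41 tested were DEGs, 11 higher and 4 lower in the pituitary, against 21.1% of all tested genes higher and 16.8% lower. Of these, TRH, TRHR, TSHB, SLCO1C1 and SLC5A5 did not pass the low-count filter within the long bone, nor THRSP within the pituitary. The filter favoured the direction of these calls.

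EEFSEC, the elongation factor that delivers selenocysteine for selenoproteins such as the deiodinases, was lower in DP long bone. The DP libraries had 6.78, 14.5 and 6.60 RPKM in juveniles and 7, 9.61 and 7.78 RPKM in adults. The MH libraries had 19.5, 20.3 and 37.4 RPKM and 23.3, 20.3 and 25.0 RPKM, all above the DP libraries. It differed by a log2 fold change of -1.48 (SE 0.29, edgeR adjusted p = 0.00954). Over all tested genes, 7.52% were DEGs lower in DPs and 4.38% had breeds that did not overlap. Of the 5 genes with a row in the list of EEFSEC, it was the DEG, and the list median was -0.04 beside -0.01 for all genes. The part of the cell type markers that differed between the breeds in the EEFSEC difference was not tested.

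Of 6 tested membrane transporters, 3 were DEGs between breeds in the long bone, 2 higher and 1 lower in DPs, against 11.1% of all tested genes higher and 7.52% lower. SLC7A5 and SLC7A8, amino acid transporters that also carry thyroid hormones, were higher in DPs by 1.71 (SE 0.53, edgeR adjusted p = 0.0448) and 1.15 (SE 0.45, edgeR adjusted p = 0.0948). SLCO4A1, an organic anion transporter, was lower (log2 fold change -1.07, SE 0.31, edgeR adjusted p = 0.0355). The SLC7A8 call held in 8 and the SLCO4A1 call in 9 of the 12 fits without 1 library (0.83 to 1.42 and -1.23 to -0.96). SLC7A8 lost it without DPLBJ replicate 3, DPLBA replicate 3, MHLBA replicate 2 or MHLBA replicate 3, and SLCO4A1 without DPLBJ replicate 3, MHLBA replicate 2 or MHLBJ replicate 1. TTR, transthyretin, a plasma carrier of T4, had 0 reads in all 6 DP long bone libraries. The MH long bone libraries had 12, 2 and 27 reads in juveniles and 796, 2573 and 6 reads in adults. Against a floor of 3 reads per library, the mean of the MH libraries was at least 135-fold higher, carried by the 796 and 2573 reads. Without MHLBA replicate 2 (left out after seeing the data) the mean was at least 51.3-fold higher, carried by the 796 reads of MHLBA replicate 1. MHLBA replicate 2 also had 68202 reads of ALB, the albumin gene, against 34 to 305 in the other long bone libraries. The edgeR fit, with a log2 fold change of -11.99 against libraries without a read, gave an adjusted p of 0.0154. TTR passed the low-count filter through the MH libraries only. MHLBJ replicate 2, with 2 reads, is itself under the floor. The 11 receptor partners and coregulators, 5 T3 targets and 4 genes of DIO2 turnover held 0 DEGs between breeds in the long bone in edgeR, against 18.6% of all tested genes. In each list 1 gene had an unadjusted P under 0.05, against 33.1% of all tested genes.

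In the pituitary, HR, a corepressor of the receptors and itself a T3 target, was the DEG between breeds. The DP libraries had 1.55, 0.83 and 0.74 RPKM in juveniles and 1.78, 0.61 and 0.95 RPKM in adults, and the MH libraries 2.86, 4.92 and 3.76 RPKM and 3.5, 1.16 and 2.57 RPKM. HR differed by a log2 fold change of -1.52 (SE 0.42, edgeR adjusted p = 0.114). Juveniles did not overlap, which held for 42.5% of all tested genes, and adults did. Of the 5 pituitary libraries low in anterior pituitary markers, 4 were MH libraries, with 2.86 to 4.92 RPKM of HR, and the other was DPPA replicate 1, the highest DP library. The part of these markers in the HR difference was not tested. TSHB had 80, 226 and 107 reads in DPPJ, 0, 21 and 424 in DPPA, 0, 87 and 535 in MHPA and 0 in each of MHPJ. The libraries without a TSHB read were the 5 libraries low in anterior pituitary markers, so the breeds could not be compared in juveniles on it. TRHR, the receptor of thyrotropin releasing hormone, had 110 to 626 reads in the 7 other pituitary libraries and 0 to 17 reads in these 5. TRH had 404 reads in DPPA replicate 1, 380 in MHPJ replicate 1 and 164 in DPPJ replicate 2, and 0 to 37 in the other pituitary libraries.

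Between the tissues, SLCO1C1, a T4 transporter, was higher in the pituitary by 6.44 on the log2 scale (SE 0.75, edgeR adjusted p = 3.3e-07). It did not pass the low-count filter within the long bone, so the filter favoured this direction. SLC7A5 was higher in the pituitary by 1.15 (SE 0.54, edgeR adjusted p = 0.0715), and without the 5 libraries low in anterior pituitary markers this turned to -0.44. It held in 9 of the 24 fits without 1 library (0.74 to 1.45). The RXR partners went opposite ways, with RXRG higher in the pituitary by 1.96 (SE 0.47, edgeR adjusted p = 0.00128) and RXRA lower (log2 fold change -1.68, SE 0.21, edgeR adjusted p = 9.62e-07). TBL1XR1, a corepressor component, was 2.01-fold lower (SE 0.19 on the log2 scale, edgeR adjusted p = 0.00014), a call that held in 13 of the 24 fits without 1 library.

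Of the 5 T3 targets, HR was higher in the pituitary (1.77, SE 0.37, edgeR adjusted p = 0.000347), and THRSP and BCL3 were lower. THRSP, a lipogenic T3 target of adipose tissue, had 17.2 to 186 RPKM in the long bone and 0 to 0.69 RPKM in the pituitary (log2 fold change -8.18, SE 0.58, edgeR adjusted p = 4.07e-10). THRSP did not pass the low-count filter within the pituitary, so the filter favoured this direction. In the long bone it was at 17.6 to 156 RPKM in DPs and 17.2 to 186 RPKM in MHs. BCL3 was lower in the pituitary (log2 fold change -1.99, SE 0.28, edgeR adjusted p = 4.55e-06). SLC5A5, the iodide symporter of the thyroid follicle, had up to 332 reads (MHPA replicate 1) in the pituitary and at most 7 in any long bone library (4.17, SE 1.03, edgeR adjusted p = 0.00153). SLC5A5 did not pass the low-count filter within the long bone, so the filter favoured this direction too. NR1D1 lies on the same chromosome as THRA, without overlapping it, in the RefSeq annotation of another assembly (TB-T2T). It was higher in the pituitary by 1.41 (SE 0.39, edgeR adjusted p = 0.00396). Between breeds it was not a DEG, with 0.50 (SE 0.37) in the pituitary and -0.01 (SE 0.61) in the long bone. Whether the counting used strand is not given in the sources used here.

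Between the stages over both breeds, SLC16A10, an aromatic amino acid and thyroid hormone transporter, was lower in the juvenile pituitary (log2 fold change -1.09, SE 0.45, edgeR adjusted p = 0.987), a call that held in 6 of the 12 fits without 1 library (-1.31 to -0.81). PAX8, a thyroid transcription factor, had 0 to 9 reads in the juvenile and 1 to 46 in the adult long bone (-3.17, SE 0.98, edgeR adjusted p = 0.933), and TTR followed the MH reads given above. These 3 were the DEGs of the pathway lists between stages, and none passed an adjusted p under 0.05.

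The genes whose level was most like that of each gene were sought by Pearson's r of log2 CPM over the 12 libraries of a tissue, separately for 13526 genes in the pituitary and 12999 in the long bone. These values describe libraries that share depth, tissue composition and breed, and are given without p. In the pituitary, DNAJC6, E2F3 and TPGS2 were most like THRA (r = 0.981, 0.979 and 0.978, and at least 0.971 after removing group means). SERAC1, a gene whose symbol the file lists as 11-Mar, and RAVER2 were most like THRB (r = 0.895, 0.861 and 0.847), and INPP4A, RRAGD and SYT16 were most like CRYM (r = 0.948, 0.945 and 0.944). HSPA9, ID4 and VASN were most like TSHR (r = 0.834, 0.808 and 0.802), where r fell to 0.469, 0.439 and 0.598 after group means were removed.

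Among long bone libraries, MEPE and SOST, genes of osteocytes, were among the 3 most like THRA (r = 0.905 and 0.892), with MYO15B (r = 0.899) between them. KMT2A, FAM76A and FBXL2 were most like THRB (r = 0.97, 0.968 and 0.966), and r was 0.906, 0.627 and 0.727 after group means were removed. MAPRE2, GPX5 and VIT were most like DIO3 (r = 0.887, 0.871 and 0.839), ACTR3B, LDB2 and SEC24B most like TSHR (r = 0.934, 0.926 and 0.925), and DACH2, CELSR1 and CACNA2D3 most like CRYM (r = 0.913, 0.912 and 0.911).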

How the data were processed

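Bulk RNA-seq of 24 horse libraries (ribosomal RNA removed, directional libraries per the labels) was analysed. The authors mapped trimmed reads to the horse genome and deposited whole-number counts of reads on 24232 genes without normalization. They also deposited RPKM values of 24248 genes. The labels name TopHat2 and the methods Salmon, so the aligner behind the counts is uncertain.

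Counts were fitted with edgeR (4.0.16, R 4.3.3) by the quasi-likelihood test with TMM factors, keeping genes that passed filterByExpr (minimum count 10), over the 6 libraries of a pair of groups, the 12 of a tissue with the other factor as covariate, or all 24. A DEG had P under 0.05 and a fold change over 2, the threshold of the study, and p-values were adjusted by Benjamini-Hochberg over all tested genes. Per the study's methods, the 3 libraries of a group come from different horses, so p-values measure the spread between horses. Which pituitary and long bone share a horse is not given in the sources used here. The tissue and breed-by-tissue fits therefore treated the libraries as independent. Their p-values leave out that a horse gave both tissues. With 3 against 3 an exact permutation test cannot go below 0.1. RPKM was used for levels. The scripts were tested on simulated data. A count of 0 allows up to 3 reads, and depth limits cover counting error only.

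The genes and lists were chosen with earlier results of these data known. Named were the 5 genes, up to 3 DEGs per list with the largest pooled fold change, TSHB, SLCO1C1 and NR1D1, and the 3 genes most like each of the 5. One gene that the rule names is not reported here. Alternatives were DESeq2 (1.42.0), limma (3.58.1) on log2(RPKM + 1) and log2(RPKM + 0.1), no TMM, no filter, an adjusted threshold, a common fit of all groups, a replicate block and leaving out each library. Same-numbered libraries deviated together in 1 comparison, DPPA with MHPA, where all 3 pairs correlated at 0.33 to 0.621. These are horses of different breeds, and replicate 1 of both groups is low in anterior pituitary markers. The replicate number is taken from the labels, which do not say what it marks.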

Additional observations from a re-analysis of the deposited data

Results flagged for a closer look

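Tests of a difference between breed effects picked out 4 results among 14 tests of these genes. Of all tested genes, 20% passed between the tissues. Between the stages, 15.7% passed in the pituitary and 4.17% in the long bone. The breed difference of THRB (DP minus MH) differed between the pituitary and the long bone by 1.73 on the log2 scale (edgeR adjusted p = 0.0143). That of TSHR differed between the tissues by 5.91 (edgeR adjusted p = 0.00824). That of DIO3 differed by -3.24 (edgeR adjusted p = 0.179). In the pituitary, the breed difference of THRA differed between juveniles and adults by -1.57 (edgeR adjusted p = 0.224). The last 2 fail the correction for multiple tests.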

How the results depend on the processing

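Of 56 fold changes examined, 412 alternative values that kept all libraries included 337 on the same side of the threshold, 64 that lost it, 11 that gained it and 0 that turned direction. Among 816 fits without 1 library the numbers were 731, 70, 15 and 0. The THRB difference between breeds in the long bone held under all 7 alternatives and all 12 fits without 1 library (-2.01 to -1.83). The added alternative without the 5 pituitary libraries low in anterior pituitary markers turned SLC7A5 between tissues to -0.44.

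Calls of the 5 genes between breeds in pairs of groups were 5 of 17 tests, where 2.93% to 20.3% of all tested genes were DEGs. They were 1 at an adjusted p under 0.05, 3 with limma on log2(RPKM + 1), and 4 to 8 without 1 library, the 8 without DPLBA replicate 2. Between stages the calls were 1 of 16 tests, where 2.91% to 7.74% of all tested genes were DEGs. They were 0 at an adjusted p under 0.05 and with limma on either scale, 3 without the filter, 2 with all groups fitted together, and 0 to 2 without 1 library. They were 0 without DPPA replicate 3, DPPJ replicate 2 or DPPJ replicate 3, and 2 without MHPA replicate 1, MHPJ replicate 2, DPLBA replicate 2, DPLBJ replicate 1, MHLBA replicate 2 or MHLBA replicate 3. Between breeds over both stages there were 3 calls in 9 tests, and 1 with limma on log2(RPKM + 1). Of all tested genes, 5.51% were DEGs in the pituitary and 18.6% in the long bone. Between stages over both breeds there was 1 call in 9 tests, and 0 at an adjusted p under 0.05 and with limma on log2(RPKM + 1). The shares of all tested genes were 1.12% in the pituitary and 2.06% in the long bone. The interactions gave 4 calls in 14 tests, where 4.17% to 20% of all tested genes passed. They gave 2 at an adjusted p under 0.05, without TMM and with limma on either scale, and 2 to 5 without 1 library, the 2 without DPPJ replicate 3. Tissue calls, 12 of 18 tests in pairs and 3 of 5 over the groups, stayed within 10 to 15 and 2 to 4. Of all tested genes, 27.1% to 39.1% were DEGs in these pairs and 37.9% over the groups. TSHR and DIO3 lie near or under 1 RPKM in most libraries, and the pseudocount of 1 shrinks their differences by construction. The cause of the other changes was not tested.

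With the replicate block, calls in pairs of groups were 4 between breeds, 1 between stages and 10 between tissues. Same-numbered libraries deviated together in DPPA with MHPA, where TSHR lost its call. These are horses of different breeds, and replicate 1 of both groups is low in anterior pituitary markers. The part of these markers in the shared deviation was not tested. In the other 11 comparisons of pairs, at most 1 of 3 same-numbered pairs correlated over 0.1, and the numbers are not taken to pair the libraries. There the block took the call from TSHR between DPPA and DPLBA (3.69) and from THRA between MHPA and MHLBA (1.07), and in the larger fits from TSHR between breeds in the pituitary (1.88) and from the DIO3 interaction (-2.41).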

Other observations

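TTR had 139999 reads (12029 RPKM) in MHPA replicate 1 and at most 380 reads in any other pituitary library. In the long bone, MHLBA replicate 2 had 68202 reads of ALB, the albumin gene, and 2573 reads of TTR, while the other long bone libraries had 34 to 305 reads of ALB. DPPJ replicate 2 had 9330 reads of ALB, 380 of TTR and 164 of TRH. TG, the thyroglobulin gene, had 145 reads in DPLBA replicate 2 and at most 14 in every other library. SLC5A5 had 332 reads in MHPA replicate 1 and at most 55 elsewhere. The genes were looked up from the pathway lists and these libraries were singled out after their values were seen.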
